A study of Mus musculus with 16 samples.

Results

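The 40 genes described here carry long-chain fatty acids into heart muscle cells, activate them, move them into mitochondria and oxidize them, or regulate these steps. They were listed by name, with earlier results of these data known, and every probe that the platform annotation assigns to them was read. Of the 40 genes, 36 had a named probe (61 probes), and 35 had at least 1 probe detected in at least 1 group and were tested. Acsl1, Acacb, Hadha and Ucp2 had no named probe, and the probe of Cpt1a was detected on 0 of 16 arrays. The arrays (Illumina MouseRef-8 v2.0 BeadChips) measured total RNA from the left ventricle of 12 week-old male mice in 4 groups of 4 mice each. C57BL/6J mice carry their own chromosome Y, and C57.YA mice are the consomic strain with the C57BL/6J background and the chromosome Y of A/J. Mice of each strain had undergone either sham surgery or castration (CX) before puberty, so that adult CX mice lack the testosterone that testes make. The tissue holds many cell types, so for every gene below fewer cells of a type and less RNA per cell cannot be told apart, and p-values measure the spread between mice.

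Fatty acids are the main fuel of the adult heart. Lipoprotein lipase releases them from circulating triglyceride, Cd36 and Slc27a1 carry them over the membrane, Fabp3 binds them in the cytosol, and acyl-CoA synthetases activate them. Carnitine palmitoyltransferases (Cpt1 at the outer and Cpt2 at the inner mitochondrial membrane) and the carrier Slc25a20 then pass the acyl group into the matrix, where each turn of beta-oxidation removes acetyl-CoA and hands electrons to the flavoprotein Etf. Fatty acids that are not burned at once are stored as triglyceride in lipid droplets. There Plin5 coats the droplet beside mitochondria, and Pnpla2 (adipose triglyceride lipase) starts to break the store down. Ppara, a nuclear receptor activated by fatty acids, drives the transcription of many of these genes.

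Between 11435 and 12212 of the 25697 probes were detected per array (detection p of at most 0.04), and 12764 probes, among them the brightest tested probe of each of 8831 named genes, were tested. The cardiomyocyte markers (7 of 7 detected) had a mean log2 signal between 15.40 and 15.53 on every array, and 0 of them were called in any comparison by limma. Signals this near the top of the scale may limit what a change can show, so these 0 calls do not show an equal share of cardiomyocytes. The adipocyte markers Adipoq, Plin1, Lep, Retn and Cidec (5 of 5 with a probe) and the brown adipocyte genes Ucp1 and Elovl3 were not detected in any group, while Cidea and Cox8b, the other 2 of 4 on the brown adipocyte list, were detected at a mean log2 signal from 13.15 to 13.48. The 4 atrial genes Myl4, Myl7, Sln and Mybphl had a mean log2 signal between 9.23 and 11.2 on the 4 CX C57BL/6J arrays and at most 7.19 on the sham arrays of both strains, and lay between 7.09 and 7.65 in CX C57.YA. All 4 were called higher in CX than in sham C57BL/6J, and this group therefore differed from the others in atrial signal as well. Mean log2 signals ranged from 9.38 to 9.96 for the endothelial markers (4 of 5 detected, without Kdr), from 10.06 to 10.81 for fibroblasts (5 of 5), up to 10.72 for macrophages (3 of 3) and from 12.67 to 13.29 for red blood cells (2 of 2). With castration, 1 fibroblast marker was called higher and 1 gene of the brown adipocyte list lower in both strains, and 1 macrophage marker was called lower in C57BL/6J. Among CX mice, 2 of 3 macrophage markers (median of the list -0.35) and 1 endothelial marker were called lower in C57BL/6J, and 1 gene of the brown adipocyte list higher. No marker was called between sham strains, and the part of other cell types in the members' values was not tested. The sham C57.YA arrays 1 and 2 stood apart from arrays 3 and 4 in several genes named below.

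The fatty acid genes gave strong signals. The median of their mean log2 signals was 12.6, against 8.95 over the 8831 genes, and 56 of their 58 tested probes were detected on all 16 arrays. Signals of different probes do not rank transcripts, because probes bind with different strength. Signals near the top of the scale may limit what a change can show. A mean log2 signal of 15 or more was reached by 6 of 35 members (17.1%), against 0.917% of all genes. Fabp3 lay between 15.53 and 15.86 and Lpl between 15.74 and 15.89 over the 16 arrays, with a highest unnormalized intensity of 65069 for Fabp3, where the highest of any probe on any array was 67559. Acadm, Etfa, Hadhb and Etfb were the other 4 members at this level. At the low end, Ehhadh (at most 7.44), Ppara (7.11 to 8.46), Ucp3 (7.29 to 8.76), Angptl4 (7.33 to 8.49) and Cd36 (7.96 to 8.92) were detected on all 16 arrays.

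**Figure D1:**
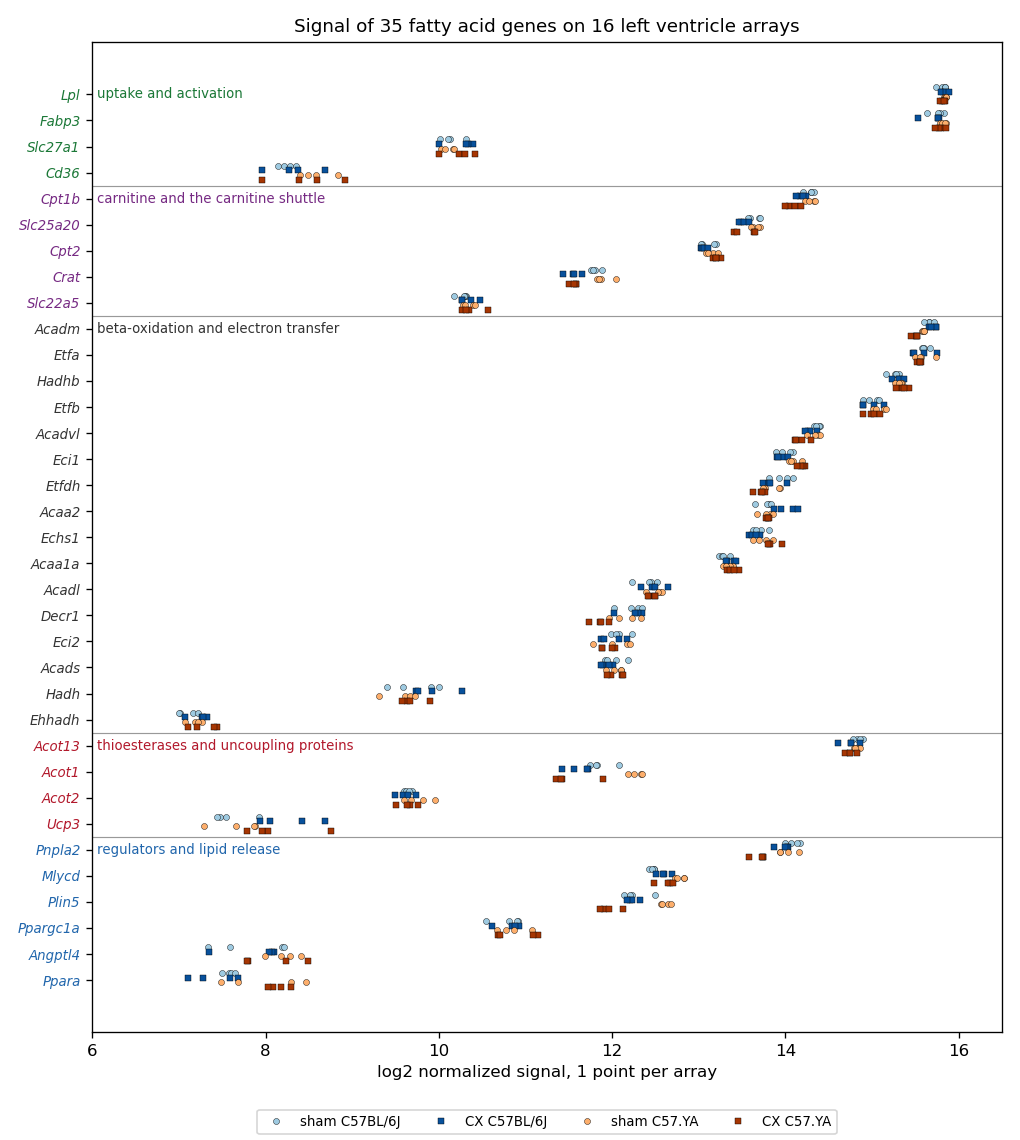
Log2 normalized signal (x axis) of the 35 tested members (rows, grouped by role and named in the colour of their role), with 1 point per array and 4 arrays in each of the 4 groups. Lpl and Fabp3 stay between 15.53 and 15.89 in every group, while Acot1, Plin5, Crat and Pnpla2 show CX C57.YA arrays shifted to lower signals than sham C57.YA.

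Castration went with lower signals of 7 members in C57.YA and with few changes in C57BL/6J. In C57.YA, by the brightest probe of each gene, Acot1, Plin5, Crat, Pnpla2, Decr1, Cpt1b and Acadvl fell and 0 of 35 members rose (limma, Benjamini-Hochberg adjusted p under 0.1 over all probes tested). A second probe of Ucp3 was called higher there (0.51, adjusted p = 0.0235). Over all 8831 genes, 10.4% were called lower and 10% higher in this comparison. In C57BL/6J, Ucp3 and Acaa2 rose (2 of 35, background 4.33%) and Crat fell (1 of 35, background 4.94%). Crat, called lower in both strains, was the member that changed with castration in each of them by its brightest probe. The share of members called in either C57BL/6J direction was near the background, and the 7 of 35 called lower in C57.YA stood beside the background of 10.4%.

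Calls between strains numbered 3 among sham and 8 among CX mice, where those over all genes numbered 402 and 1976. Among sham mice, Acot1, Plin5 and Mlycd had lower signals in C57BL/6J (3 of 35, background 1.93%) and 0 of 35 were higher (background 2.63%). In either direction, 4 of 35 members and 1532 of all 8831 genes had an unadjusted p under 0.05 by limma. Among CX mice, Decr1, Pnpla2, Plin5, Acaa2 and Acadm were higher in C57BL/6J (5 of 35, background 11.6%), and Ppara, Eci1 and Echs1 were lower (3 of 35, background 10.8%). The shares of members among CX mice (14.3% and 8.57%) lay close to those of all genes, and the share called lower in sham C57BL/6J was 8.57%. The 2 surgery comparisons and the 2 strain comparisons use the same 16 arrays, so a low or high group enters more than 1 of them. The change by castration differed between strains (the strain by surgery interaction, change in C57BL/6J minus change in C57.YA) in 1 member, Plin5. Over all genes 1.26% were called higher and 1.62% lower in the interaction.

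The median log2 difference of the 35 members was small in every comparison. It was -0.03 for castration in C57BL/6J (all genes 0.00098), -0.06 for castration in C57.YA (all genes -0.0013), -0.05 between sham strains (all genes 0.0061), -0.01 between CX strains (all genes 0.0082) and 0.06 in the interaction (all genes -0.0023). In the interaction 26 of 35 members had a positive and 9 a negative value, where 4362 of all 8831 genes had a positive and 4469 a negative one. An unadjusted p under 0.05 by limma was reached by 5 of 35 members, namely Plin5, Acot1, Mlycd, Decr1 and Acaa2, and by 1319 of all 8831 genes. The count of 5 was therefore near that of all genes and marks no trend of the members. Of the 35 members, 21 were called in none of the 5 comparisons, 8 in 1, 5 in 2, and Plin5 in 4. The uncalled members had log2 differences between -0.38 and 0.23, with a median size of 0.06, and the median 95% confidence interval reached 0.15 to either side of a member's difference. With arrays scaled to a common median instead of quantiles, fewer calls were made over all genes in each comparison, and no called member changed sign. In C57BL/6J, Ucp3 remained higher (all genes 2.93%) and 0 members were lower by limma (all genes 1.63%), with Crat at -0.20 (adjusted p = 0.325) and Acaa2 at 0.29 (adjusted p = 0.144). In C57.YA, Acot1, Plin5, Crat and Pnpla2 remained lower (4 of 35, all genes 3.58%) and Ucp3 was called higher (1 of 35, all genes 9.91%), while Cpt1b, Decr1 and Acadvl had adjusted p of 0.118, 0.119 and 0.284. Between sham strains 0 members were called (all genes 2.5% higher and 0.634% lower), with Plin5 at -0.27 (adjusted p = 0.187), Acot1 at -0.33 (adjusted p = 0.196) and Mlycd at -0.24 (adjusted p = 0.27), and 4 members had an unadjusted p under 0.05. The count of all genes at that unadjusted p under median scaling is not given. Between CX strains 4 members were higher (all genes 10.6%) and Ppara was lower (all genes 4.6%), and in the interaction Plin5 was called (all genes 0.487% higher and 0.713% lower). Over all genes the calls between CX strains moved from 1025 higher and 951 lower to 938 higher and 406 lower.

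**Figure D2:**
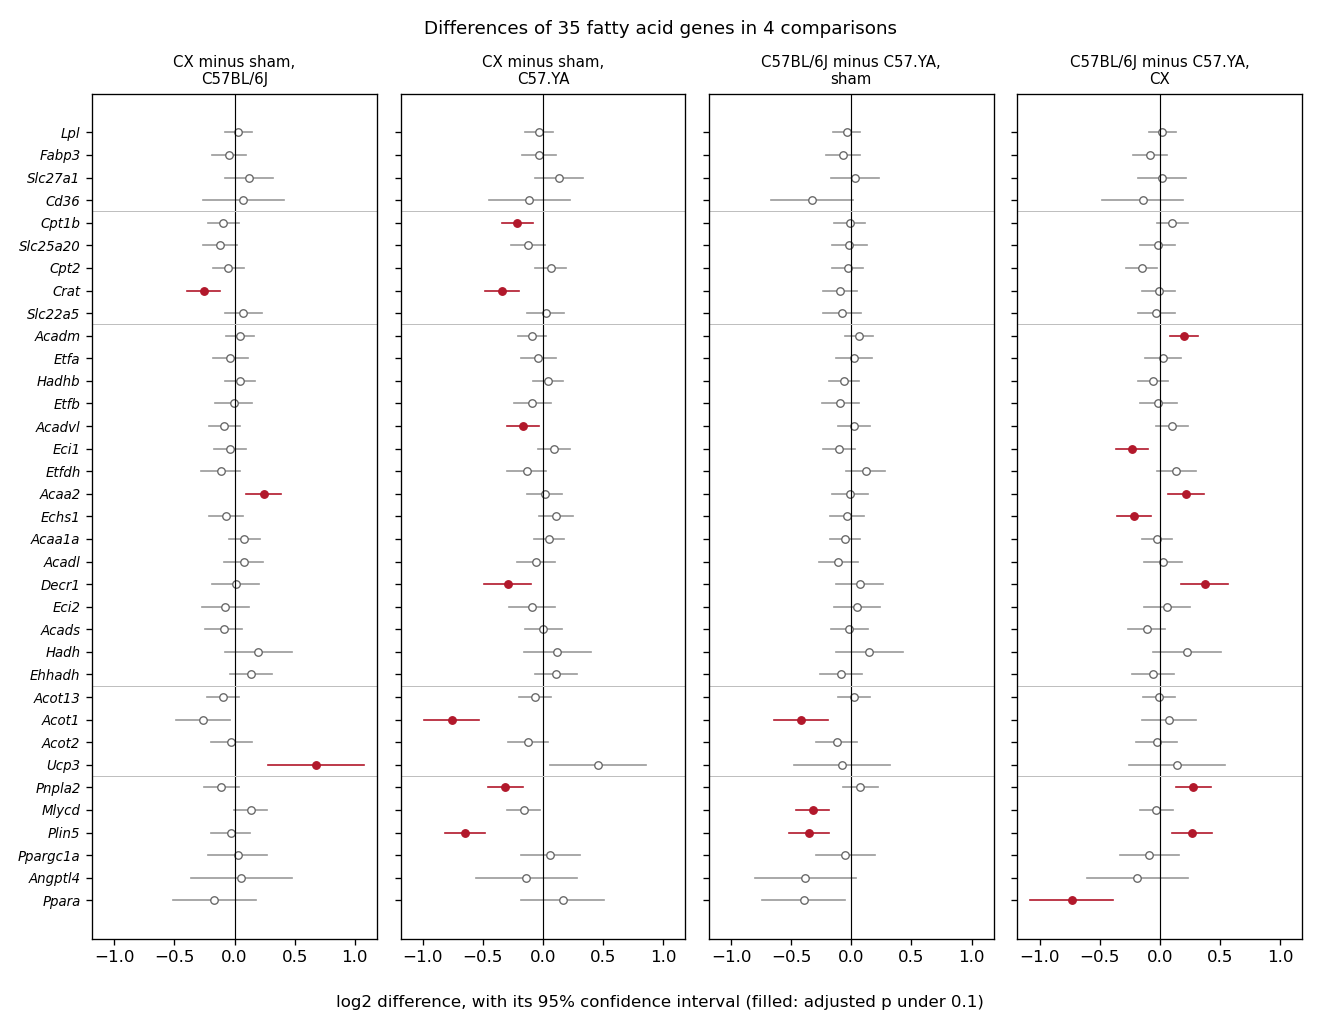
Log2 differences (x axis) of the 35 members in 4 comparisons, each with its 95% confidence interval from the fit over all probes, in the same order of genes as in the plot of signals. Filled red points are those with an adjusted p under 0.1. In C57.YA the 7 filled points all lie left of 0, from Acot1 at -0.76 to Acadvl at -0.16, while in C57BL/6J 2 lie to the right and 1 to the left.

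Among the uptake and activation genes, 0 of the 4 tested members passed the test in any comparison, and 0 had an unadjusted p under 0.05. Lpl, Fabp3, the fatty acid transport protein Slc27a1 and the fatty acid translocase Cd36 had log2 differences between -0.33 and 0.13 in the 4 comparisons between groups. The lowest of these was Cd36 between sham strains, with 8.25 ± 0.09 (SD, n = 4) in C57BL/6J and 8.58 ± 0.19 in C57.YA. The sham groups did not overlap for Cd36, yet the adjusted p was 0.312. For Lpl and Fabp3 a change could be hidden by signals that lay close to the highest intensities of the arrays.

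Among the carnitine and shuttle genes, Crat and Cpt1b changed, while Cpt2, the acylcarnitine carrier Slc25a20 and the carnitine transporter Slc22a5 were called in no comparison by their brightest probes. Crat encodes carnitine acetyltransferase, which moves acetyl groups between CoA and carnitine and so buffers the acetyl-CoA pool of mitochondria. Crat had log2 signals of 11.80, 11.75, 11.78 and 11.89 in sham C57BL/6J and of 11.54, 11.56, 11.66 and 11.43 in CX C57BL/6J. In C57.YA the signals were 11.83, 12.05, 11.88 and 11.85 after sham surgery and 11.58, 11.59, 11.51 and 11.56 after CX. In both strains every CX array was below every sham array. The log2 difference was -0.26 (SE 0.067, adjusted p = 0.0297 by limma) in C57BL/6J and -0.34 (adjusted p = 0.00196) in C57.YA, and the difference between them was 0.08 with a 95% confidence interval from -0.11 to 0.28. Its other 2 probes gave lower signals near 8 to 9. The first was also called in C57BL/6J (-0.24, adjusted p = 0.0918, lost in 12 of the 16 single-array omissions) but not in C57.YA (-0.19, adjusted p = 0.131), and the second in neither strain. Both of these probes, unlike the brightest, were called among CX mice, with C57BL/6J below C57.YA, at -0.23 (adjusted p = 0.0575, lost without CX C57BL/6J array 4 or CX C57.YA arrays 3 or 4) and -0.25 (adjusted p = 0.0956, lost in 10 omissions).

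Cpt1b, the muscle form of the outer-membrane enzyme that commits fatty acids to oxidation, fell in C57.YA by 0.21 on the log2 scale (14.29 ± 0.05 in sham and 14.08 ± 0.08 in CX, adjusted p = 0.0262), with no overlap of the groups. In C57BL/6J its difference was -0.10 (adjusted p = 0.422). A second probe of Cpt1b, with signals near 11.4, was called by limma in neither strain. Its differences were -0.20 in C57BL/6J (adjusted p = 0.155) and -0.15 in C57.YA (adjusted p = 0.229). By the brightest probe the interaction was 0.12 (adjusted p = 0.555), so a difference of response between strains was not shown for Cpt1b. A second probe of Slc25a20 was called higher in C57BL/6J than in C57.YA among CX mice (0.30, adjusted p = 0.0995), a call lost without any of 9 of the 16 arrays.

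The beta-oxidation and electron transfer genes were the largest role, with 16 of the 35 tested members. Among CX mice 3 of 16 were called higher (background 11.6%) and 2 of 16 lower (background 10.8%) in C57BL/6J. Castration in C57BL/6J gave 1 of 16 higher (background 4.33%). Decr1 encodes the mitochondrial dienoyl-CoA reductase, an auxiliary enzyme for polyunsaturated fatty acids. Decr1 gave 12.22, 12.30, 12.03 and 12.34 in sham C57BL/6J, 12.02, 12.34, 12.30 and 12.26 in CX C57BL/6J, 12.23, 12.34, 12.08 and 11.96 in sham C57.YA, and 11.86, 11.97, 11.74 and 11.87 in CX C57.YA. The CX C57.YA arrays were all below both C57BL/6J groups, and within C57.YA they overlapped the sham array 4. The log2 difference between CX strains was 0.38 (SE 0.093, adjusted p = 0.0114), a fold of 1.30. Castration in C57.YA gave -0.29 (adjusted p = 0.0436), and this call was lost when sham C57.YA array 1, sham C57.YA array 2 or CX C57.YA array 3 was left out, with adjusted p up to 0.145. Without the sham C57.YA arrays 1 and 2 together it was -0.16 (adjusted p = 0.386).

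Acaa2, the mitochondrial thiolase that cleaves acetyl-CoA from the shortened chain, was higher in CX C57BL/6J than in the other groups. It gave 13.81, 13.79, 13.84 and 13.65 in sham C57BL/6J against 13.94, 14.09, 14.14 and 13.87 in CX C57BL/6J. In C57.YA the values were 13.82, 13.86, 13.67 and 13.77 after sham surgery and 13.80, 13.81, 13.77 and 13.79 after CX. The CX C57BL/6J arrays were above all others. Castration raised Acaa2 in C57BL/6J by 0.24 on the log2 scale (adjusted p = 0.0534), and the difference between CX strains was 0.22 (adjusted p = 0.0438, lost without CX C57BL/6J array 2 or 3). Of its 4 probes, 3 were called in both comparisons and the fourth in neither, at 0.22 (adjusted p = 0.145) for castration in C57BL/6J. The call of the brightest probe in C57BL/6J was lost without sham C57BL/6J array 4, CX C57BL/6J array 2 or CX C57BL/6J array 3.

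Eci1, the enoyl-CoA isomerase that repositions double bonds of unsaturated chains, was lower in CX C57BL/6J (13.97, 14.03, 13.91 and 13.91) than in CX C57.YA (14.22, 14.20, 14.18 and 14.14). The sham groups overlapped, with 14.09, 14.05, 13.89 and 13.96 in C57BL/6J and 14.04, 14.08, 14.07 and 14.19 in C57.YA. The difference between CX strains was -0.23 (SE 0.063, adjusted p = 0.0204), with no overlap, but with median scaling it was -0.13 (adjusted p = 0.454). Echs1, the short-chain enoyl-CoA hydratase of the second step of each turn, differed in the same direction by -0.21 (adjusted p = 0.0405). That call was lost without CX C57.YA array 2 (adjusted p = 0.124), and with median scaling the value was -0.12 (adjusted p = 0.542).

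Acadm, the medium-chain acyl-CoA dehydrogenase, was higher in CX C57BL/6J than in CX C57.YA by both of its probes, but by different amounts. The brightest probe, near the top of the scale, gave 15.70 ± 0.04 and 15.50 ± 0.03 (difference 0.20, adjusted p = 0.0187, and 0.17 with an adjusted p of 0.268 under median scaling). The other probe, at lower signal, gave 14.22, 14.24, 14.01 and 13.95 in CX C57BL/6J and 13.47, 13.35, 13.22 and 13.28 in CX C57.YA, a difference of 0.78 (SE 0.158, adjusted p = 0.00345) or 1.72-fold. By this probe the sham C57BL/6J arrays lay at 14.11, 14.11, 14.03 and 13.75, while sham C57.YA fell apart into arrays 1 and 2 (14.01 and 14.16) and arrays 3 and 4 (13.22 and 13.36). The long-chain enzyme Acadvl fell in C57.YA (-0.16, adjusted p = 0.0887), a call that 9 of the 16 single-array omissions ended. The brightest probes of Acadl, Acads, Hadhb, Hadh, Acaa1a, Eci2, Ehhadh, Etfa, Etfb and Etfdh were called in no comparison. A further Etfa probe was called between CX strains at 0.23 (adjusted p = 0.0982, lost in 9 omissions) while its brightest probe was not.

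Among the thioesterases and uncoupling proteins, the acyl-CoA thioesterase Acot1 and the mitochondrial carrier Ucp3 changed. Acot1 cleaves long-chain acyl-CoA in the cytosol back to the free fatty acid. Acot1 gave 11.83, 11.81, 11.74 and 12.08 in sham C57BL/6J and 11.42, 11.55, 11.72 and 11.71 in CX C57BL/6J. In C57.YA it gave 12.25, 12.34, 12.35 and 12.19 after sham surgery and 11.43, 11.35, 11.90 and 11.41 after CX. Sham C57.YA was above all other arrays, and CX C57.YA array 3 (11.90) was set apart from the other 3 of its group (11.35 to 11.43). Castration in C57.YA lowered Acot1 by 0.76 on the log2 scale (SE 0.107, adjusted p = 9.2e-05), a fold of 1.69, and its second probe gave -0.55 (adjusted p = 0.00155). In C57BL/6J the difference was -0.26 and the groups did not overlap, but the adjusted p was 0.172. Among sham mice Acot1 was lower in C57BL/6J by 0.42 (adjusted p = 0.0448), a call lost without any of sham C57BL/6J arrays 1, 2 and 3 or sham C57.YA array 3 (adjusted p up to 0.132), whereas the second probe gave -0.43 and kept an adjusted p of at most 0.0995. The interaction was 0.50 (adjusted p = 0.117) by the brightest probe and 0.54 (adjusted p = 0.0763) by the second, where 10 of 16 single-array omissions ended the call. Acot1 has a close copy in the neighbouring mitochondrial Acot2, and signal shared between their probes cannot be told apart here. The brightest Acot2 probe reached at most 9.96 and was called in no comparison. Acot13, a mitochondria-associated thioesterase, lay between 14.60 and 14.89 and was called in none either.

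Ucp3 is an uncoupling protein of the inner mitochondrial membrane of muscle, known in mice to rise when fatty acid supply exceeds use. Ucp3 gave 7.48, 7.54, 7.93 and 7.44 in sham C57BL/6J and 8.42, 8.68, 7.94 and 8.06 in CX C57BL/6J. The C57.YA arrays gave 7.88, 7.86, 7.66 and 7.29 after sham surgery and 8.76, 8.03, 7.96 and 7.79 after CX. The C57BL/6J groups only just failed to overlap (7.93 against 7.94), and the C57.YA groups overlapped. The rise with castration was 0.68 (SE 0.190, adjusted p = 0.0433) in C57BL/6J, 1.60-fold, and the value in C57.YA was 0.46 (adjusted p = 0.117). The second probe was called in both strains, at 0.59 (adjusted p = 0.0213) and 0.51 (adjusted p = 0.0235). The difference between the strains' changes was 0.22 with a 95% confidence interval from -0.34 to 0.78. The call of the brightest probe in C57BL/6J was lost without sham C57BL/6J array 4, CX C57BL/6J array 1 or CX C57BL/6J array 2 (adjusted p up to 0.137), and that of the second probe was not lost.

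Among the regulators and lipid release genes, the droplet genes Plin5 and Pnpla2 fell with castration in C57.YA, Mlycd and Plin5 differed between sham strains, and Ppara, Plin5 and Pnpla2 differed between CX strains. Plin5 (perilipin 5) gave 12.14, 12.22, 12.21 and 12.49 in sham C57BL/6J and 12.20, 12.24, 12.17 and 12.33 in CX C57BL/6J. The signals were 12.64, 12.68, 12.57 and 12.57 in sham C57.YA and 11.91, 11.86, 12.13 and 11.96 in CX C57.YA. The C57.YA groups bracketed those of C57BL/6J, with every sham C57.YA array above and every CX C57.YA array below all 8 of the C57BL/6J arrays. Castration lowered Plin5 in C57.YA by 0.65 on the log2 scale (12.62 ± 0.06 to 11.97 ± 0.12, SE 0.079, adjusted p = 1.73e-05), a fold of 1.57. In C57BL/6J its difference was -0.03 with a 95% confidence interval from -0.20 to 0.13. The interaction was 0.62 (SE 0.111, 95% confidence interval from 0.38 to 0.85, adjusted p = 0.00663). Leaving out each array in turn kept it between 0.57 and 0.69, with adjusted p of at most 0.0197. Between strains, Plin5 in C57BL/6J was lower by 0.35 among sham mice (adjusted p = 0.0203) and higher by 0.27 among CX mice (adjusted p = 0.0274). A second Plin5 probe, with signals from 7.95 to 9.02, was called for castration in C57.YA (-0.60, adjusted p = 0.00132) and in no other comparison.

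Pnpla2 gave 14.00, 14.17, 14.06 and 14.13 in sham C57BL/6J, 13.87, 14.03, 14.02 and 13.99 in CX C57BL/6J, 14.03, 14.15, 13.94 and 13.94 in sham C57.YA, and 13.74, 13.58, 13.74 and 13.74 in CX C57.YA. CX C57.YA was below every other array. Castration lowered it in C57.YA by 0.31 (SE 0.070, adjusted p = 0.00504), and the difference between CX strains was 0.28 (adjusted p = 0.0116). The C57BL/6J change was -0.11 (adjusted p = 0.41), and the interaction was 0.20 with a 95% confidence interval from -0.0014 to 0.41 (adjusted p = 0.336), so a difference of response between strains was not shown for Pnpla2.

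Mlycd encodes malonyl-CoA decarboxylase, which removes the malonyl-CoA that inhibits Cpt1. It gave 12.42, 12.49, 12.48 and 12.46 in sham C57BL/6J and 12.60, 12.59, 12.50 and 12.69 in CX C57BL/6J, against 12.72, 12.83, 12.83 and 12.75 in sham C57.YA and 12.67, 12.64, 12.71 and 12.48 in CX C57.YA. The sham strains were well apart and the CX strains overlapped. The difference between sham strains was -0.32 (SE 0.065, adjusted p = 0.0103). With castration the values moved in opposite directions, by 0.13 in C57BL/6J and -0.16 in C57.YA, but neither of these (adjusted p = 0.264 and 0.112) nor the interaction (0.29, adjusted p = 0.126) passed the threshold.

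Ppara gave 7.58, 7.60, 7.65 and 7.50 in sham C57BL/6J and 7.59, 7.27, 7.68 and 7.11 in CX C57BL/6J. The sham C57.YA arrays gave 7.68 and 7.49 for mice 1 and 2 and 8.46 and 8.29 for mice 3 and 4, and the CX C57.YA arrays 8.18, 8.08, 8.29 and 8.02. All CX C57.YA arrays were above all C57BL/6J arrays, and sham C57.YA held both levels. The difference between CX strains was -0.73 (SE 0.165, adjusted p = 0.00657), 1.66-fold, and that between sham strains -0.40 (adjusted p = 0.231). The coactivator Ppargc1a (10.55 to 11.15) and Angptl4, an inhibitor of lipoprotein lipase (7.33 to 8.49), were called in no comparison.

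**Figure D3:**
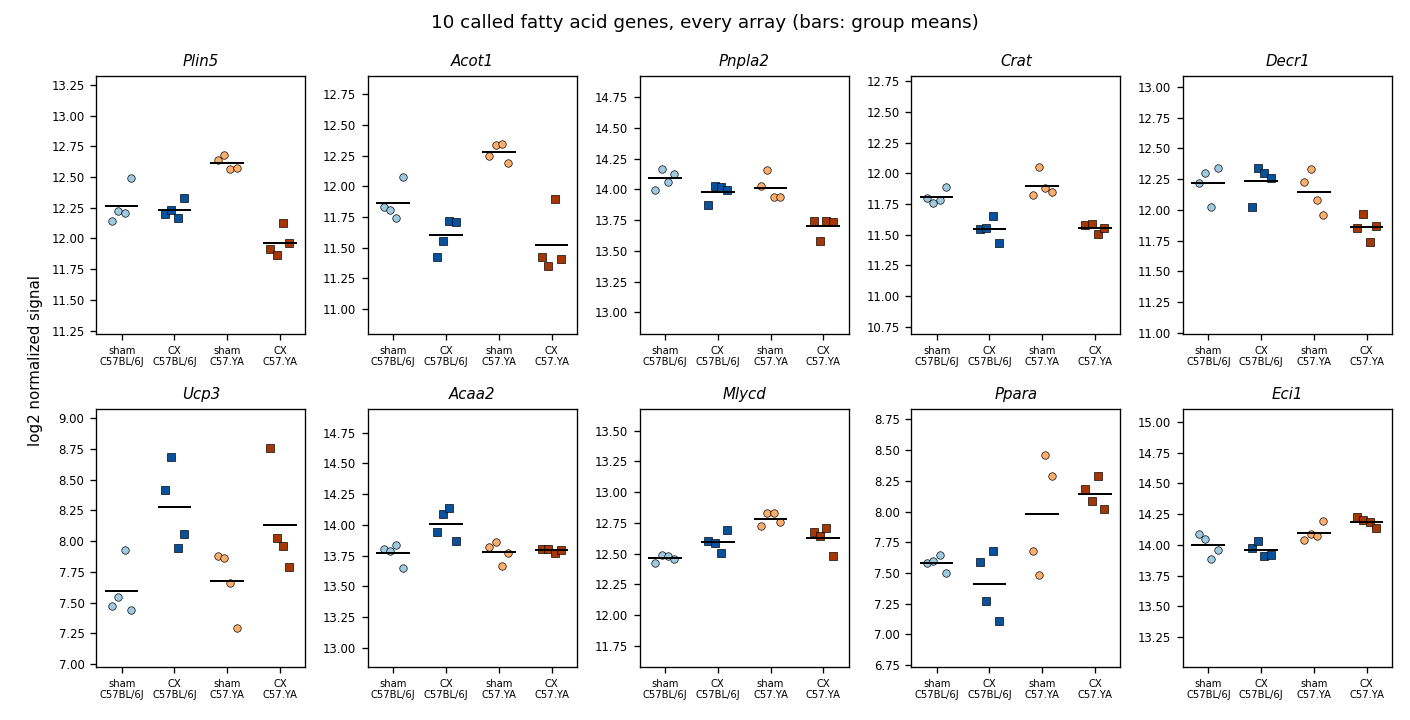
Log2 normalized signal (y axis) of 10 members on every array by group, with bars at the group means and panels that all span the same number of log2 units. Plin5 in sham C57.YA (12.57 to 12.68) and CX C57.YA (11.86 to 12.13) lies above and below both C57BL/6J groups, and Ppara in sham C57.YA splits into 7.49 and 7.68 against 8.29 and 8.46.

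In the comparisons that involve CX C57BL/6J, the atrial genes moved with the group. When the mean signal of the 4 atrial genes was added to the model, 0 of 35 members were called by limma for castration in C57BL/6J, between CX strains and in the interaction (1, 3 and 4 members had an unadjusted p under 0.05), and standard errors grew by a median of 2.81, 2.66 and 2.01 times, since the covariate is high in that group alone. Over all 12764 probes tested, calls went from 1124 to 80, from 2992 to 0 and from 368 to 53 in the same order. With 0 probes called between CX strains, no member could be called there. With the covariate the Plin5 interaction was 0.68 (adjusted p = 0.302), and the Ucp3 difference in C57BL/6J was -0.59 (adjusted p = 0.67). For castration in C57.YA, which has no such array, 7 members were still called with the covariate, at -0.65 for Plin5 (adjusted p = 3.43e-05) and -0.75 for Acot1 (adjusted p = 0.000169). Calls over all probes in that comparison went from 2510 to 2782. The part of atrial tissue in the CX C57BL/6J values was not tested.

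The promoters of the members called in the interaction or in both strains by any tested probe were read to show the sequence next to their starts. Of the 4 such genes, Plin5, Acot1 and Ucp3 have a promoter in the RefSeq table used (build GRCm38.p6, from 250 bases before to 50 after the start), as have 33 of the 40 members. Crat, Cpt1b, Acot13, Acaa2, Angptl4, Decr1 and Lpl are not in that table. The sequences were searched on both strands for the hexamer AGGTCA bound by nuclear receptors such as Ppara, for its direct repeat spaced by 1 base (the element of the Ppara and Rxr dimer), for the extended ERR element TCAAGGTCA, for the steroid receptor hexamer AGAACA, for the E-box CACGTG and for the CRE core TGACGTCA. The direct repeat and the ERR element contain the hexamer AGGTCA. Matches are in capitals, and the reverse strand of AGAACA reads TGTTCT.

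Plin5: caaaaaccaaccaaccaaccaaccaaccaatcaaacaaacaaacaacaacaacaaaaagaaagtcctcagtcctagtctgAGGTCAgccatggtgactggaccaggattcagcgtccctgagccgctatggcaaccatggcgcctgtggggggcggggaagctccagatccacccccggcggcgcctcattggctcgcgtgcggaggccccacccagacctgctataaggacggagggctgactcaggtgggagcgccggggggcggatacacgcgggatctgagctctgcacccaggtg
Ucp3: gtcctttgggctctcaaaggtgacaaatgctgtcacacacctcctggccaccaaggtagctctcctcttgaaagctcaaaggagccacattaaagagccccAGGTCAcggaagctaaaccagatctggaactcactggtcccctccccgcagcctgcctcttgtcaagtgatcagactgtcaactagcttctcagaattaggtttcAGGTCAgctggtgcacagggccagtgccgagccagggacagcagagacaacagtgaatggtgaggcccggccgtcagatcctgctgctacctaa
Acot1: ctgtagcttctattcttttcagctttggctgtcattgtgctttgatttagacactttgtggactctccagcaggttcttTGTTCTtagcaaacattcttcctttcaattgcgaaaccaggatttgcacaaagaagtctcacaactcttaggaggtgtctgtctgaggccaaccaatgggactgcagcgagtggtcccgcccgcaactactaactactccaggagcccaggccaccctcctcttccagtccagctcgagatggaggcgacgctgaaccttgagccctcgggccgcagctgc

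Plin5 is on the minus strand at chr17:56117499-56117798 and holds 1 AGGTCA, which starts 170 bases before the transcript start. A second annotated start of Plin5 (chr17:56117249-56117548) also has 1 AGGTCA in its window. Ucp3, on the plus strand at chr7:100472741-100473040, holds 2 copies of AGGTCA, starting 149 and 44 bases before the start. Acot1, on the plus strand at chr12:84009252-84009551, holds no AGGTCA and 1 AGAACA on the reverse strand, which starts 171 bases before the start. Of all 32851 promoters of this length, 16.3% hold AGGTCA and 19% hold AGAACA, against 9 (24.3%) and 3 (8.11%) of the 37 promoters of the members. None of the members' promoters held the direct repeat, the ERR element or the CRE core, which 0.0396%, 0.423% and 1.79% of all promoters hold, and 1 (Slc27a1) held the E-box, which 7.15% hold. A match describes these letters and is not evidence of binding.

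The genes of 5 related lists (other uptake, activation and binding genes, peroxisomal and accessory oxidation genes, other regulators, droplet and triglyceride genes, and ketone and acetate genes) gave 69 tested genes of 85 listed. Of these, 2 rose (2.9%, all genes 4.33%) and 6 fell (8.7%, all genes 4.94%) with castration in C57BL/6J. In C57.YA, 3 rose (4.35%, all genes 10%) and 13 fell (18.8%, all genes 10.4%). Between sham strains 1 was higher (1.45%, all genes 2.63%) and 2 were lower (2.9%, all genes 1.93%) in C57BL/6J. Between CX strains 13 were higher (18.8%, all genes 11.6%) and 11 lower (15.9%, all genes 10.8%). In the interaction 2 were higher (2.9%, all genes 1.26%) and 1 was lower (1.45%, all genes 1.62%). Their median log2 differences were -0.03, -0.07, -0.01, 0.02 and 0.04 in these 5 comparisons.

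Pdk4, the kinase that shuts pyruvate dehydrogenase when fatty acids are burned, had the largest differences of these lists in C57BL/6J after castration, between sham strains and in the interaction. It gave 11.27, 11.64, 11.43 and 11.94 in sham C57BL/6J and 12.71, 12.42, 13.11 and 14.27 in CX C57BL/6J, against 12.57, 12.89, 12.64 and 12.57 in sham C57.YA and 12.84, 12.14, 12.81 and 12.20 in CX C57.YA. Sham C57BL/6J was below all other arrays. Castration raised it by 1.56 (adjusted p = 0.00193), 2.94-fold, in C57BL/6J. The C57.YA value was -0.17 (adjusted p = 0.731), and the interaction was 1.73 (adjusted p = 0.0297). With the atrial covariate the difference in C57BL/6J was 3.31 (adjusted p = 0.0458) and the interaction 3.37 (adjusted p = 0.0608). Among sham mice it was lower in C57BL/6J by 1.10 (adjusted p = 0.0386), a call lost without sham C57BL/6J array 1 or 3 (adjusted p up to 0.111).

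G0s2 is a small droplet protein that inhibits Pnpla2. It gave 10.96, 10.62, 10.75 and 10.86 in sham C57BL/6J, 10.67, 10.75, 10.81 and 10.77 in CX C57BL/6J, 11.17, 11.45, 11.55 and 11.30 in sham C57.YA, and 11.06, 10.77, 10.82 and 10.69 in CX C57.YA. Only sham C57.YA stood out, above every other array. Castration in C57.YA gave -0.53 (adjusted p = 0.000845), sham C57BL/6J minus sham C57.YA gave -0.57 (adjusted p = 0.0019), and the interaction was 0.48 (adjusted p = 0.079), a call that 10 of the 16 single-array omissions, median scaling (adjusted p = 0.189) and the atrial covariate (adjusted p = 0.723) ended. In the same comparisons Plin5, which also binds Pnpla2, had -0.65, -0.35 and 0.62.

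Bdh1, the ketone body enzyme beta-hydroxybutyrate dehydrogenase, fell with castration in C57BL/6J by 1.11 (adjusted p = 0.0018), from 12.00, 12.05, 12.18 and 12.27 to 10.97, 11.24, 10.48 and 11.40, and with the atrial covariate the value was -1.13 (adjusted p = 0.468). In C57.YA its sham arrays 1 and 2 (11.74 and 11.66) lay below arrays 3 and 4 (12.28 and 12.34), the CX arrays gave 11.09, 11.33, 11.87 and 11.77, and the difference of -0.49 did not pass the threshold. Among CX mice Bdh1 was lower in C57BL/6J by 0.49 (adjusted p = 0.0889), a call that 7 of the 16 single-array omissions, median scaling (adjusted p = 0.144) and the atrial covariate (adjusted p = 0.768) ended. Rxrg, a partner of Ppara in its dimer, fell with castration in C57.YA by 0.46 (adjusted p = 0.000465). Prkaa2, a catalytic subunit of the energy sensor AMPK, was lower in CX C57BL/6J than in CX C57.YA by 0.55 (adjusted p = 0.00976), or -0.34 with the atrial covariate (adjusted p = 0.775). Its CX arrays lay between 10.16 and 10.39 in C57BL/6J and between 10.82 and 10.88 in C57.YA. Sham C57BL/6J ranged from 10.03 to 10.73. Sham C57.YA gave 10.38 and 10.32 on arrays 1 and 2 and 10.85 and 10.90 on arrays 3 and 4.

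**Figure D4:**
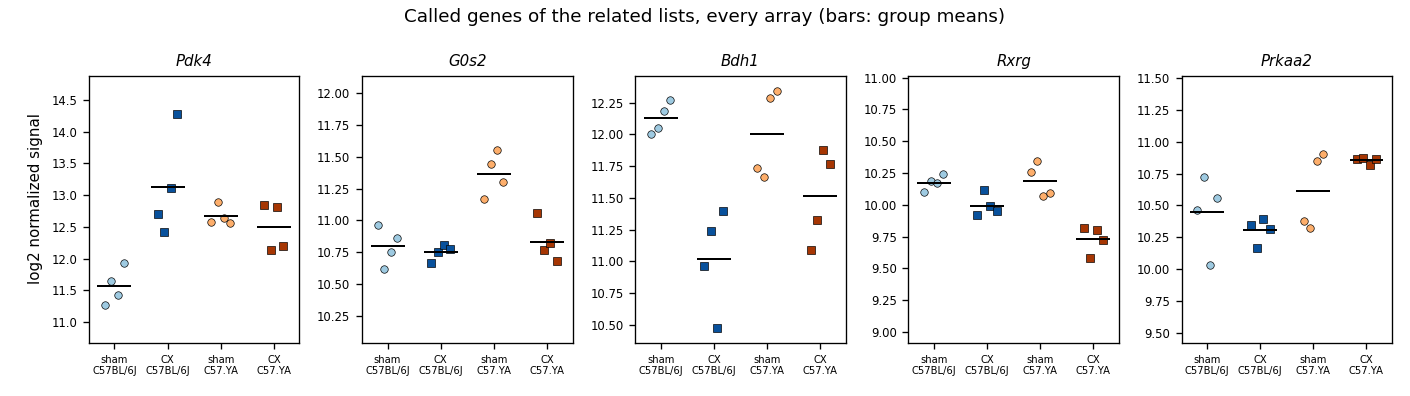
Log2 normalized signal (y axis) of 5 called genes from the related lists on every array by group, with bars at the group means. The Pdk4 panel spans more log2 units than the others. Sham C57.YA is highest for G0s2 (11.17 to 11.55), and sham C57BL/6J is lowest for Pdk4 (11.27 to 11.94).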

How the data were processed

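The deposited tables hold, per the file headers, 1 unnormalized intensity and 1 detection p-value per probe and array, which the authors exported from BeadStudio, beside 32 columns of bead statistics that were not used here. The deposited log2 table was quantile-normalized by the authors, and its probe names do not belong to its values (its 25697 lines matched the normalized intensities by value within 5.43e-06, but 1 line by its own name), so it served as an alternative only. Intensities were taken to log2 and quantile-normalized (R 4.3.3, limma 3.58.1). Probes with a detection p of at most 0.04 on at least 2 arrays of a group were kept, after the authors' filter. Group means of 16 arrays were fitted with limma, and calls were made at a Benjamini-Hochberg adjusted p under 0.1. The shrunken permutation test of the authors was not run. Genes take the brightest tested probe. Probes were named by the platform annotation and RefSeq symbols (23978 of 25697 matched).

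The genes and lists were chosen with earlier results of these data known, so nothing here is independent support. Values of every array are given for members called in the interaction and for up to 5 called members with the largest differences in each comparison between groups, and the 2 called genes with the largest differences are named from the related lists. Marker lists were those of cardiomyocytes, atrial muscle, white and brown adipocytes, capillary endothelium, fibroblasts, macrophages and red blood cells. The fit was tested on simulated data with known changes. Alternatives were other scalings, background correction, detection filters, variances, array weights, the atrial signal as covariate, the mean of probes, a replicate block and the omission of arrays. No arrays held identical values. The number of 4 arrays per group limits the precision.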

Additional observations from a re-analysis of the deposited data

Results flagged for a closer look

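In 5 of 140 groups of 4 arrays (35 members in 4 groups, of which chance alone would set about 1 in 20 apart), 1 array was far from the other 3. Fabp3 was 15.53 on CX C57BL/6J array 3 (nearest array 15.76), and Angptl4 was 7.34 on the same array (nearest 8.04). Pnpla2 was 13.58 (nearest 13.74) and Echs1 13.96 (nearest 13.83) on CX C57.YA array 2. Acot1 was 11.90 on CX C57.YA array 3 (nearest 11.43). The change with castration differed between the strains, by the interaction term of limma, for Plin5 (0.62, adjusted p = 0.00663) and for the second Acot1 probe (0.54, adjusted p = 0.0763).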

How the results depend on the processing

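The number of members called for castration in C57BL/6J was 3, and it was 1 with median scaling and 0 with the atrial signal as covariate. For the sham strains it was 3, and 0 with median scaling (4 at an unadjusted p under 0.05 by limma). For the CX strains it was 8, against 5 with median scaling and 0 with the atrial covariate. For the interaction it was 1, against 3 with stricter detection, 2 with ordinary variances, 3 with the adaptive false discovery rate, 2 with array weights, 0 with the atrial covariate, 2 with the mean of a gene's probes and 4 without sham C57.YA arrays 3 and 4. Over all genes, median scaling took the calls in C57BL/6J from 382 higher and 436 lower to 259 and 144. The sham strains went from 232 and 170 to 221 and 56, and the interaction from 111 and 143 to 43 and 63. The atrial covariate left 80, 0 and 53 of all probes called in C57BL/6J, between CX strains and in the interaction. Calls over all genes under the other settings and array omissions are not given, nor is the count of all genes by unadjusted p under median scaling. The counts of members therefore cannot show a change particular to the members. The members' median log2 difference in C57BL/6J was 0.0276 with median scaling, -0.0524 with the atrial covariate and 0.00825 with the mean of probes. In C57.YA it was -0.0336 without sham C57.YA arrays 3 and 4. For the sham strains it was 0.00517 with median scaling and -0.0288 without those arrays. For the CX strains it was 0.0811 with median scaling, -0.0401 with the atrial covariate and 0.00998 with the mean of probes. Median scaling moved the median of all genes by 0.042, 0.057, 0.066, 0.046 and -0.017 in the 5 comparisons. The Ucp3 difference in C57BL/6J was -0.59 (adjusted p = 0.67 by limma) with the atrial covariate, so its sign was not determined there. That covariate is high in CX C57BL/6J alone, and standard errors grew by a median of 2.81 times. The cause of the changes between settings was not tested.

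Leaving out each array in turn, the counts ran from 1 to 4 (1 without sham C57BL/6J array 4 or CX C57BL/6J array 2) in C57BL/6J, from 5 to 8 in C57.YA, from 2 to 4 for the sham strains, from 7 to 8 for the CX strains and from 1 to 2 for the interaction (2 without sham C57BL/6J array 4, CX C57BL/6J array 1, sham C57.YA array 4 or CX C57.YA array 3). The median log2 difference ran from -0.0408 to 0.018 (0.018 without sham C57BL/6J array 4), from -0.0587 to -0.0292, from -0.0546 to -0.0371, from -0.0105 to 0.0176 and from 0.044 to 0.0751 in the same order. The replicate numbers were not taken to pair the arrays. Deviations of same-numbered arrays correlated between -0.0856 and 0.204 over all pairs of groups, above 0.1 in 8 of 24 pairs. For different-numbered arrays the median was 0.0305 in the C57BL/6J groups and -0.0408 in the C57.YA groups. It was 0.015 between the sham groups and -0.0402 between the CX groups. Whether same-numbered arrays share an effect was not tested. With the replicate block the counts were 3, 8, 3, 8 and 1. The omission of sham C57.YA arrays was chosen after seeing the data. The chip as a block was not run, as the labels do not assign arrays to chips. With 4 arrays a group, small differences could be missed, and whether signals near the top of the scale hid changes was not tested.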
